A study of Mus musculus with 6 samples.

Results

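A list of 43 interferon-stimulated genes was examined in laser-dissected mouse colon tumors. The list was set by gene name, and its members were chosen with earlier results of these data known. Of the 43 genes, 42 were paired with a probe set of the Affymetrix Mouse Gene 1.0 ST array, and Ifi44 was not. For each gene the probe set with the highest mean over the 6 arrays was taken, which gave 40 of the 35556 probe sets, because Oas1a and Oas1g share a set and so do Irgm2 and Igtp. Another 4 sets carry the symbol of a member beside those of related or overlapping genes (Isg15, Ifi47, Gbp2 and Gbp6, the last with 5 further guanylate-binding proteins), so their signals belong to those genes together.

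Tumors came from 3 CDX2P-G19Cre;Apcflox/flox;Tgfbr2flox/flox mice, which delete Apc and Tgfbr2 (double knockout tumors), and from 3 CDX2P-G19Cre;Apcflox/flox mice, which delete Apc alone (Apc knockout tumors). The labels give the strain of every mouse as C57BL/6J, which the methods state for the Tgfbr2flox/flox line only. All mice were 3 weeks old, and each gave 1 array. In both groups Cre was driven by a human CDX2 promoter fragment in the colon epithelium and became active in single cells at random, so stromal and blood cells kept both genes. The values are log2 signals after robust multichip analysis (RMA), a method that corrects background, brings the arrays to a common distribution and summarizes the probes of a set.

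Interferons are secreted proteins that induce an antiviral state. Type I and type III interferons signal through the kinases Jak1 and Tyk2 to a complex that holds Stat2 and Irf9 and binds the interferon-stimulated response element (ISRE) of target promoters. Interferon-gamma, the type II interferon of T and NK cells, signals through Jak1 and Jak2, acts at gamma-activated sites (GAS) and induces Irf1, the immunity-related GTPases and the guanylate-binding proteins. Many targets answer to both, and in the gut epithelium they restrict viruses and intracellular bacteria.

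Tgfbr2 had 10.98, 10.35 and 10.47 in double knockout tumors, against 11.35, 11.37 and 11.09 in Apc knockout tumors, so every double knockout tumor was lower (log2 fold change −0.67, standard error 0.19), and where the probes of the set lie relative to the deleted exons was not examined. Array medians lay between 7.68 and 7.80. Double knockout tumor 2 stood apart: its correlation with the other tumors over all probe sets was 0.956 to 0.968, against 0.980 to 0.988 among the other 5. All 10 colon epithelium markers passed the filter on signal, and their mean was 11.97 to 12.28 in double knockout tumors, against 11.80 to 12.22 in Apc knockout tumors. This mean hides opposite shifts in double knockout tumor 2. It was below both other double knockout tumors for 2 of the 10, Krt18 and Cdx2 (Cdx2 8.24, against 10.08 to 11.18 in the other tumors). Krt20 was highest in it (12.15, against 10.11 to 11.81), as were Cdx1, Cdh1, Krt8, Krt19, Vil1 and Lgals4. In double knockout tumor 2 the mean of 10 Wnt target and crypt cell genes was 8.80 (11.07 to 11.56 in the other tumors), that of 10 smooth muscle markers 10.38 (8.17 to 8.82) and that of 10 differentiated colonocyte genes 11.13 (8.76 to 9.90). Results are therefore given with and without this tumor. In tissue samples, fewer cells of a type and less RNA per cell cannot be told apart.

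Response elements of 8 members are shown here, as RefSeq gives them for GRCm38.p6. They are those of neighboring genes that share a probe set or lie in a family described together, and of Ifit1 and Isg15, classical targets of type I interferon. Of the 43 genes, 33 had at least 1 window from 250 bases before to 50 after a transcription start. The ISRE letters, GAAA followed by any 2 bases and GAAA again, on either strand and with overlapping matches counted, occurred in a window of 19 of the 33 (57.6%), and in a window of 1079 of all 27025 genes in the table (3.99%). The GAS letters TTCNNNGAA, which read the same on both strands, occurred in 10 of the 33 (30.3%) and in 9.55% of all genes. A match is a string of letters and not a measured binding site. Capitals mark the ISRE letters, each stretch ends at or before the start, and all are read 5′ to 3′ on the strand of the gene.
Trim30d (chr7:104507861-104507910, minus strand): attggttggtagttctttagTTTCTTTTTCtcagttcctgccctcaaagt
Trim30a (chr7:104465200-104465249, minus strand): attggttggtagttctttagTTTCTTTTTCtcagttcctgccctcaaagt
Oas1a (chr5:120907526-120907565, minus strand): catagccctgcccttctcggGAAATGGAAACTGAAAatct
Oas1g (chr5:120887614-120887651, minus strand): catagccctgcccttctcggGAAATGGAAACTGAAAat
Ifit1 (chr19:34640765-34640833, plus strand): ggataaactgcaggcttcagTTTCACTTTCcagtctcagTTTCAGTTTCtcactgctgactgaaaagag
Isg15 (chr4:156200855-156200916, minus strand): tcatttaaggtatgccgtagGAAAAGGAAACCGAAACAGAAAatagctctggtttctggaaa
Igtp (chr11:58199502-58199551, plus strand): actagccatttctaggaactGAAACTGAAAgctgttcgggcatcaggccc
Irgm2 (chr11:58214893-58214942, plus strand): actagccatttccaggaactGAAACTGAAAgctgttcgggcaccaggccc
The Trim30a and Trim30d stretches are the same over all 50 bases, those of Oas1a and Oas1g are the same over the 38 bases they share, and those of Igtp and Irgm2 match at 48 of 50 positions. Each of these pairs is a pair of related neighbors in the genome. Of the 8 genes shown, Oas1a, Igtp and Irgm2 also have the GAS letters in the window. No ISRE letters were found in the windows of Samhd1, Irf7, Oasl1, Oasl2, Ifi35, Xaf1, Cmpk2 or Lgals3bp, among others.

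Most interferon-stimulated genes averaged higher signals in the double knockout tumors than they did in the Apc knockout group, but the 3 double knockout tumors did not share this. Double knockout tumors 1 and 3 had the highest signals and double knockout tumor 2 often the lowest. Averaged over the 40 probe sets, the log2 signal was 10.09, 8.65 and 10.23 in double knockout tumors 1 to 3, against 8.86, 9.71 and 9.23 in Apc knockout tumors 1 to 3. The group means were 9.66 ± 0.88 and 9.27 ± 0.43 (SD, n = 3 each). Of the 40 sets, 35 had a higher and 5 a lower mean in double knockout tumors (double knockout higher in 52.3% of the 19506 probe sets tested). After median centring of the arrays 38 of the 40 were higher, and after a further quantile normalization 37. The median log2 fold change was 0.40 over the members and 0.01 over all sets tested.
Genotypes were compared with limma, double knockout minus Apc knockout, over the 19506 probe sets that carry a gene symbol and have a mean signal of at least 5.88, the 20th percentile. All 40 member sets passed this filter. None of the 40, and none of all sets tested (0%), passed an adjusted p of 0.05 in limma, where the members' adjusted p lay between 0.821 and 0.997. At an unadjusted p under 0.05, limma gave 5 members, all higher in double knockout tumors, against 1.78% of all sets in that direction. The methods' t-test gave 3, with 0 after adjustment, and its share over all sets was not counted. The groups did not overlap in the same 5 members, all higher in double knockout tumors (5.25% of all sets tested). They were Trim30d, Samhd1, Ifih1, Trim30a and the set of Oas1a and Oas1g.

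**Figure D1:**
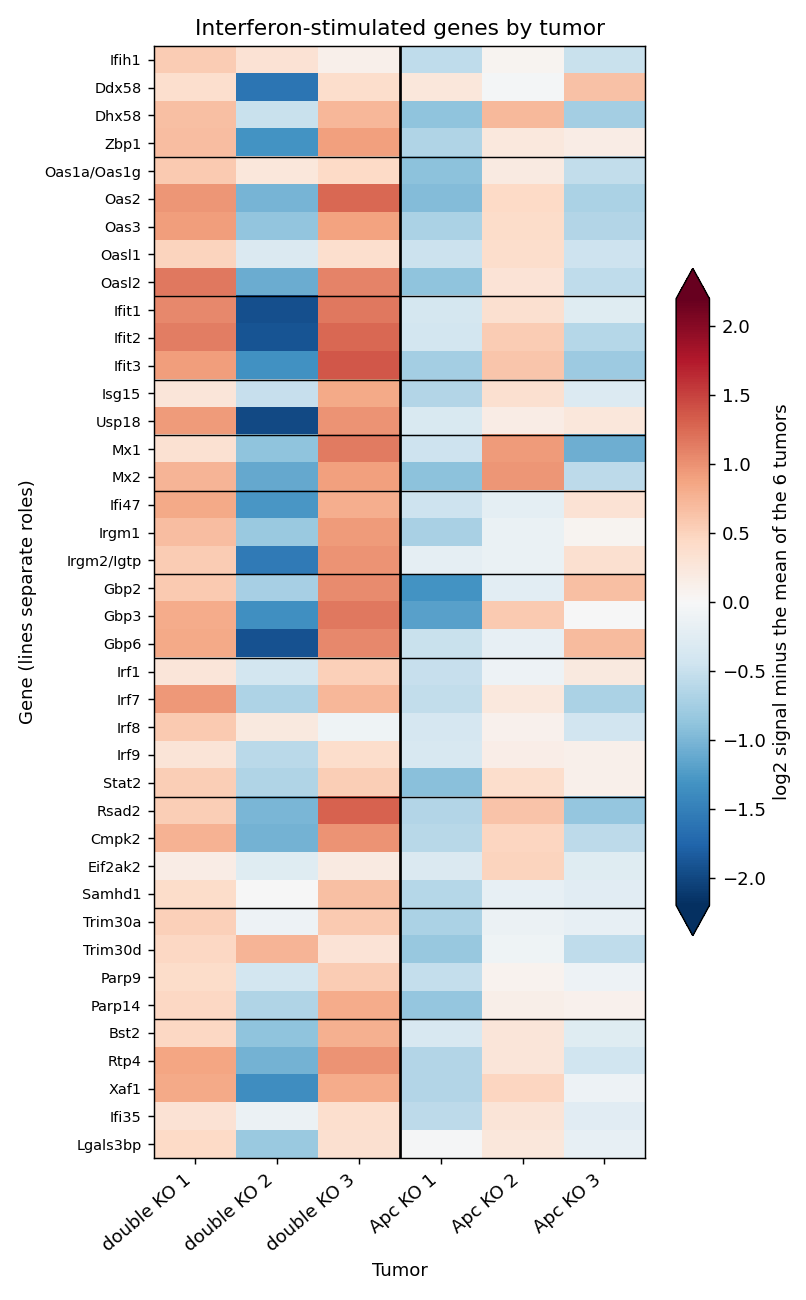
Deviation of the log2 signal from the mean of the 6 tumors (color) for the 40 probe sets (rows, by role) in each tumor (columns, double knockout tumors left of Apc knockout tumors). Double knockout tumors 1 and 3 are above the mean in most rows, and the lowest signal is that of double knockout tumor 2 in 22 of 40.

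Trim30d and Trim30a are neighboring members of a mouse TRIM family, of which Trim30a is known to restrain Toll-like receptor signaling. Trim30d had log2 signals of 8.37, 8.66 and 8.21 in double knockout tumors 1 to 3, against 7.08, 7.81 and 7.35 in Apc knockout tumors 1 to 3. It was the only member with its highest signal in double knockout tumor 2, and its gap between groups (0.40) was the widest of the members. The mean was 8.42 ± 0.23 in double knockout tumors, against 7.41 ± 0.37 in Apc knockout tumors (SD, n = 3 each). In limma this log2 fold change of 1.0 had a standard error of 0.22 and an adjusted p of 0.821, and it was 0.88 without double knockout tumor 2. Trim30a had 9.77, 9.14 and 9.82 in double knockout tumors, against 8.56, 9.12 and 9.07 in Apc knockout tumors. Its groups lay apart by 0.02 only, between double knockout tumor 2 and Apc knockout tumor 2. Its log2 fold change was 0.66 (standard error 0.24) and 0.88 without double knockout tumor 2. Probes of such related genes may share targets, so the pair are not independent measurements.

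Samhd1, a phosphohydrolase that depletes the nucleotides needed for viral DNA synthesis, was 1.63-fold higher in double knockout tumors. Its signals were 11.08, 10.66 and 11.34 in double knockout tumors, against 10.04, 10.49 and 10.42 in Apc knockout tumors, with a gap of 0.17 between the groups. The log2 fold change was 0.71 (standard error 0.21), and 0.89 without double knockout tumor 2. Ifih1 (MDA5), a cytosolic sensor of long double-stranded RNA, was 1.58-fold higher, with 10.41, 10.18 and 9.98 against 9.30, 9.93 and 9.36. Double knockout tumor 2 lay between the other double knockout tumors for this gene, and the fold change stayed near its value without that tumor (log2 0.67 against 0.66). The set of Oas1a and Oas1g, synthetases of the 2-5A messenger that activates RNase L, was 1.79-fold higher, with 10.41, 10.09 and 10.28 in double knockout tumors, against 8.93, 10.03 and 9.29 in Apc knockout tumors. Apc knockout tumor 2 was the only Apc knockout tumor near the double knockout tumors, at a distance of 0.06. A second set that carries Oas1a alone had 9.53, 9.13 and 9.43 against 8.36, 9.25 and 8.50, so its groups overlapped. For each of these 5 members a two-sided exact permutation test gave p = 0.1, the smallest that 3 tumors against 3 allow. Groups that do not overlap always give this value, so the test adds nothing to the absence of overlap.

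**Figure D2:**
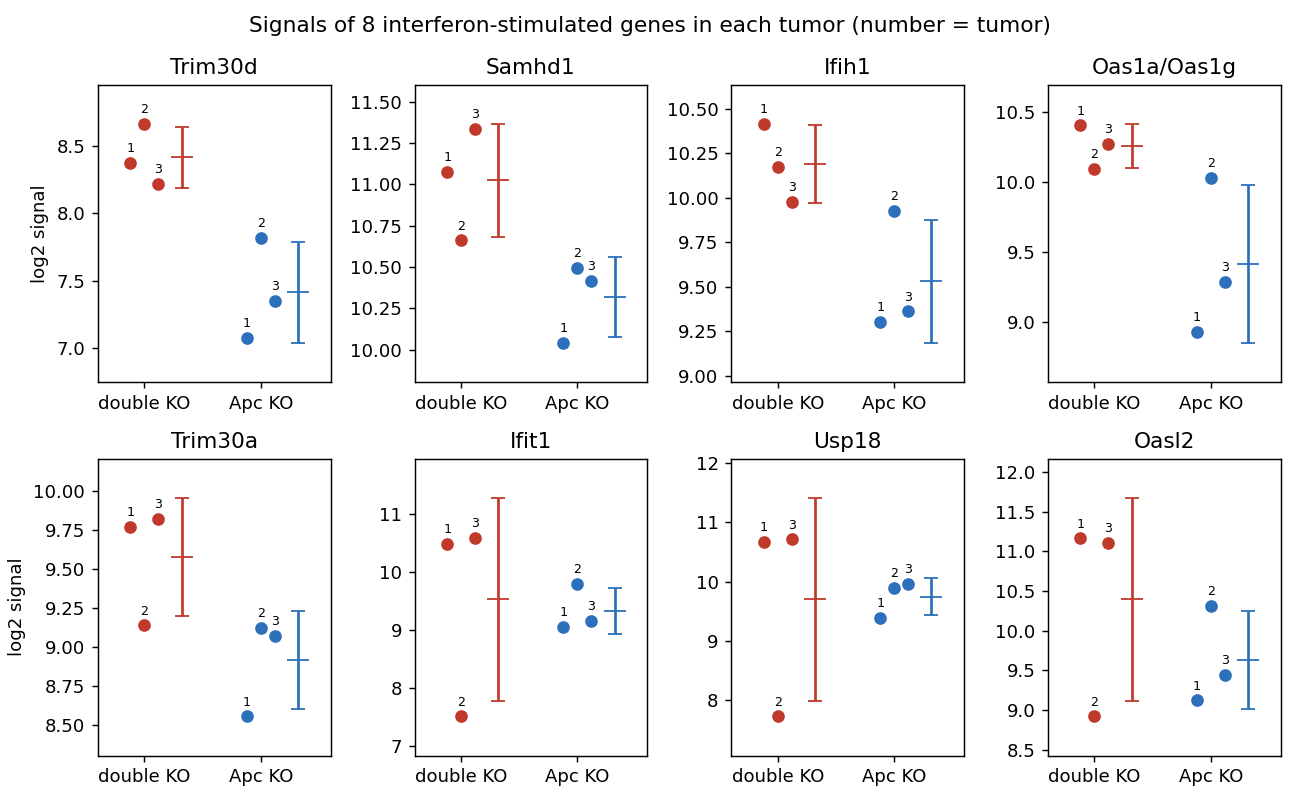
Log2 signal (vertical axis, with a range of its own in each panel) of 8 members in double knockout tumors (red, left) and Apc knockout tumors (blue, right), 1 point per tumor with its number. The bar beside the points is the mean with the SD (n = 3). The groups do not overlap for Trim30d, Samhd1, Ifih1, the set of Oas1a and Oas1g, or Trim30a, whereas double knockout tumor 2 lies below all other tumors for Ifit1, Usp18 and Oasl2.

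Most members followed another pattern, in which double knockout tumors 1 and 3 were close to each other and double knockout tumor 2 lay below. In 28 of the 40 sets both double knockout tumors 1 and 3 were above the other 4 tumors, as in 5.29% of all sets tested. Double knockout tumor 2 was below both of them in 37 members (41.2% of all sets) and at least 1 log2 unit below their mean in 28 (4.50% of all sets). The exceptions to the first count were Trim30d, Ifih1 and Irf8. The median distance of double knockout tumor 2 from that mean was −1.58 over the members and −0.0028 over all sets tested. Double knockout tumors 1 and 3 differed by a median of 0.16 over the members and 0.14 over all sets tested. The median range over the 6 tumors was 1.76 over the members and 0.54 over all sets tested.

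The IFIT proteins bind viral RNA that lacks the methylation of host messages, and Ifit2 and Ifit1 were the members with the largest distance of double knockout tumor 2 from the other double knockout tumors. Ifit1 had 10.49, 7.51 and 10.59 in double knockout tumors, against 9.05, 9.79 and 9.16 in Apc knockout tumors. Its signal in double knockout tumor 2 was 8.20-fold below the mean of the other double knockout tumors, and below every Apc knockout tumor. The fold change between genotypes was 1.15 (log2 0.20, standard error 0.84) with all tumors and 2.31 without double knockout tumor 2. Ifit3 had 9.87, 7.62 and 10.31, against 8.19, 9.56 and 8.14, and Ifit2 was 8.54-fold lower in double knockout tumor 2 than in the mean of the other double knockout tumors. Usp18, the protease that removes ISG15 from proteins and damps type I interferon receptor signaling, had 10.66, 7.73 and 10.71 against 9.39, 9.89 and 9.97. Its log2 fold change was −0.05 with all tumors and 0.94 without double knockout tumor 2. Isg15, the ubiquitin-like modifier itself, had 7.20, 6.42 and 7.78 against 6.29, 7.29 and 6.63, where Apc knockout tumor 2 was above double knockout tumor 1.

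The other members of the oligoadenylate synthetase family were all higher in mean in double knockout tumors. Oas2 had 9.67, 7.68 and 9.96 in double knockout tumors, against 7.76, 9.14 and 8.01 in Apc knockout tumors, with a log2 fold change of 0.81 (standard error 0.68). Oas3 had 9.11, 7.33 and 9.08 against 7.49, 8.59 and 7.55. The lowest signal of both genes was that of double knockout tumor 2. Oasl2, a synthetase-like protein, had 11.16, 8.92 and 11.10 against 9.12, 10.31 and 9.44, and was 2.84-fold higher without double knockout tumor 2 but 1.71-fold with it. Oasl1, known to restrain translation of Irf7, was 1.28-fold higher (standard error 0.32 on the log2 scale), and 1.53-fold without double knockout tumor 2.
Rsad2 (viperin), which makes a chain-terminating nucleotide, had 8.71, 7.16 and 9.46 in double knockout tumors, against 7.52, 8.79 and 7.32 in Apc knockout tumors. Cmpk2, its neighbor in the genome, had a log2 fold change of 0.48, and Eif2ak2 (PKR), the kinase that halts translation on double-stranded RNA, of 0.07. They were 1.12 for Cmpk2 and 0.21 for Eif2ak2 without double knockout tumor 2. Double knockout tumor 2 and Apc knockout tumors 1 and 3 were low for all 3 of these genes. Mx1 and Mx2 encode dynamin-like GTPases that block viral replication, and C57BL/6J, the labelled strain, is known to carry a defective Mx1 allele. Mx1 had 7.69, 6.46 and 8.49 against 6.89, 8.28 and 6.28, and Apc knockout tumor 2 lay between double knockout tumors 1 and 3.

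The 5 transcription factors of the list all had a higher mean in double knockout tumors. Irf7, the factor that amplifies type I interferon production, had 10.99, 9.36 and 10.77 in double knockout tumors, against 9.49, 10.27 and 9.34 in Apc knockout tumors, and was 1.59-fold higher (log2 0.67, standard error 0.48). Stat2 had 10.64, 9.44 and 10.65 against 9.18, 10.48 and 10.21, and Irf9, its partner, had 10.40, 9.52 and 10.50 against 9.76, 10.26 and 10.22. For both, double knockout tumors 1 and 3 were just above the highest Apc knockout tumor. Irf8, a factor of macrophage and dendritic cell development, had 10.89, 10.54 and 10.23 against 9.95, 10.42 and 9.90. Its log2 fold change of 0.46 (standard error 0.22) was nearly the same without double knockout tumor 2 (0.47), and the groups overlapped only by double knockout tumor 3 and Apc knockout tumor 2.
Among the sensors, Ddx58 (RIG-I), which detects short double-stranded RNA with a 5′ triphosphate, was the member with the lowest log2 fold change (−0.57, standard error 0.56). It had 10.77, 8.80 and 10.78 in double knockout tumors, against 10.65, 10.37 and 11.05 in Apc knockout tumors, and without double knockout tumor 2 the fold change was 0.09. Zbp1, a sensor of Z-form nucleic acid, had 10.68, 8.70 and 10.90 against 9.35, 10.24 and 10.18. Dhx58 (LGP2), a regulator of the other RNA sensors, was 1.52-fold higher, and 2.0-fold without double knockout tumor 2. Ddx58 and Zbp1 were lowest in double knockout tumor 2.

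Apc knockout tumors differed among themselves as well. Apc knockout tumor 2 was the highest Apc knockout tumor in 32 of 40 member sets (33.8% of all sets tested) and Apc knockout tumor 3 in the other 8. These 8 were Gbp2, Gbp6, Ddx58, Ifi47, the set of Irgm2 and Igtp, Irf1, Irgm1 and Usp18. The immunity-related GTPases and guanylate-binding proteins, families that take part in the defense against intracellular pathogens, thus accounted for 5 of the 8. The mean of the 3 immunity-related GTPase sets was 10.60, 8.70 and 10.82 in double knockout tumors 1 to 3, against 9.46, 9.75 and 10.16 in Apc knockout tumors 1 to 3. The mean of the 5 oligoadenylate synthetase sets was 10.01, 8.59 and 10.005, against 8.41, 9.54 and 8.61. Apc knockout tumor 3 was thus the highest of its group for the GTPases and closer to tumor 1 than to tumor 2 for the synthetases.
Gbp2 had 10.11, 8.80 and 10.57 in double knockout tumors, against 8.22, 9.30 and 10.20 in Apc knockout tumors. The set of Irgm2 and Igtp had 11.11, 8.99 and 11.54 against 10.36, 10.42 and 10.91, and Irgm1 had 10.87, 9.37 and 11.11 against 9.46, 10.04 and 10.23. Gbp3 ran the other way within the Apc knockout tumors, with 10.21 in tumor 2 and 9.63 in tumor 3. Irf1, the interferon-gamma target that activates several of these genes, had 11.24, 10.56 and 11.50 against 10.47, 10.86 and 11.19. Its second probe set, with 7.93, 7.38 and 8.0 against 7.50, 7.72 and 7.97, also placed Apc knockout tumor 3 above the other Apc knockout tumors. The largest differences in favor of Apc knockout tumor 2 over Apc knockout tumor 3 were those of Mx1 (2.0), Mx2 (1.55), Rsad2 (1.47), Dhx58 (1.46) and Ifit3 (1.41). These differences are between single tumors and have no test.

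**Figure D3:**
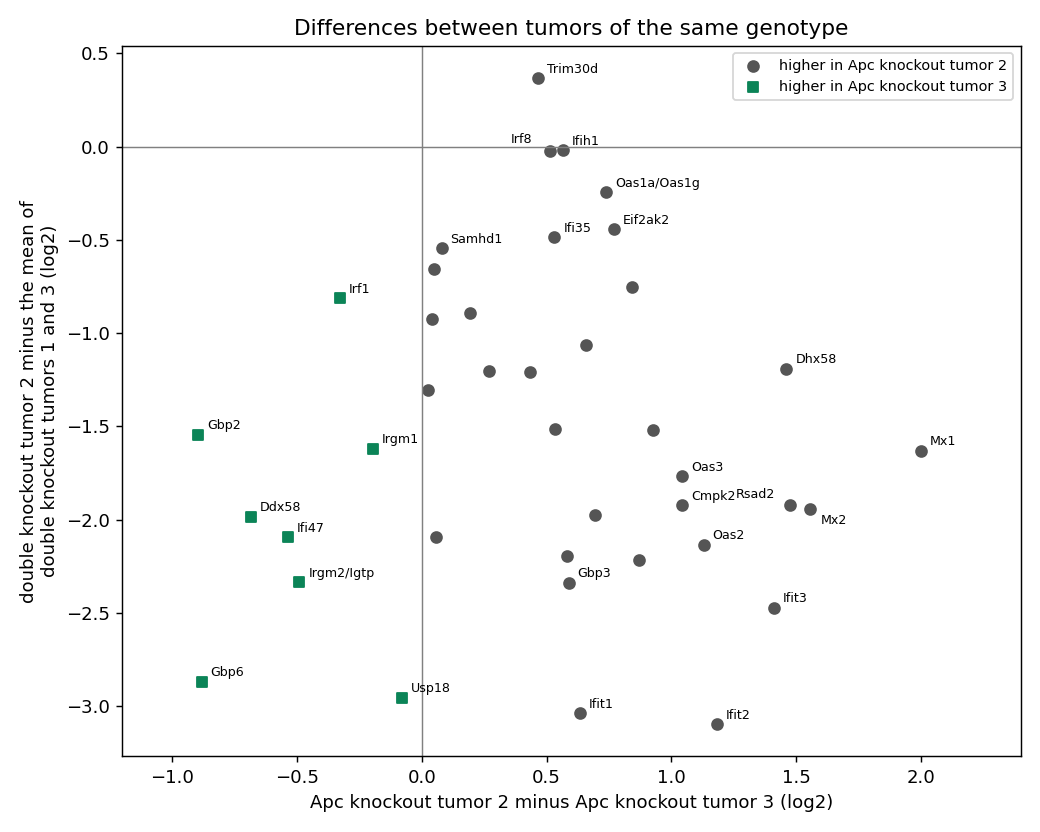
Log2 difference between Apc knockout tumors 2 and 3 (horizontal axis) and between double knockout tumor 2 and the mean of double knockout tumors 1 and 3 (vertical axis), 1 point per member probe set. Gbp2, Gbp6, Ddx58, Ifi47, the set of Irgm2 and Igtp, Irf1, Irgm1 and Usp18 (green squares) were higher in Apc knockout tumor 3, and all members except Trim30d were lower in double knockout tumor 2 than in the mean of the other double knockout tumors.

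The last members code for proteins of mixed function. Bst2 (tetherin), which holds budding virus particles at the cell surface, had 9.94, 8.59 and 10.27 in double knockout tumors, against 9.14, 9.75 and 9.22 in Apc knockout tumors. Lgals3bp, a secreted glycoprotein that binds galectin-3, had 12.83, 11.58 and 12.74 against 12.37, 12.65 and 12.21. The signal of double knockout tumor 2 was below all others for both genes. Of the others, Rtp4 had a log2 fold change of 0.54, Parp14 of 0.41, Parp9 of 0.37, Ifi35 of 0.37 and Xaf1, an inhibitor of XIAP, of 0.19. Without double knockout tumor 2 these were 1.20 for Rtp4, 0.85 for Parp14, 0.67 for Parp9, 0.53 for Ifi35 and 0.92 for Xaf1.

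Without double knockout tumor 2, all 40 member sets had higher means in double knockout tumors (50.5% of all sets tested), and the median log2 fold change was 0.92 over the members and 0.0022 over all sets. An unadjusted p under 0.05 was reached by 25 members (2.22% of all sets in that direction), and the groups did not overlap in 30 (9.49% of all sets). None of the members and none of all sets passed the adjusted threshold in limma, where the smallest adjusted p of a member was 0.688. The log2 fold changes ranged from 0.09 for Ddx58 to 1.52 for Oas2. The IFIT genes were at 1.21 to 1.46, Irf7 at 1.18 and Irgm1 at 1.08. The size of the difference rests on that tumor, which also differed in Wnt target, smooth muscle and colonocyte genes, and the part of tumor composition in its low interferon-stimulated signals was not tested.
Leaving out double knockout tumor 2 raises the difference of any member for which it is the lowest double knockout tumor, as it was for 37 of the 40. Leaving out other tumors moved the median as well. It was 0.09 without double knockout tumor 3, with 24 of 40 members higher, and 0.25 without double knockout tumor 1, with 28 higher. Without Apc knockout tumor 2 it was 0.63, with 37 higher. Without Apc knockout tumor 1, the lowest of the 6 tumors for 15 members, it was 0.19, with 1 member at an unadjusted p under 0.05. The shares of all sets tested were not counted with these tumors left out.

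**Figure D4:**
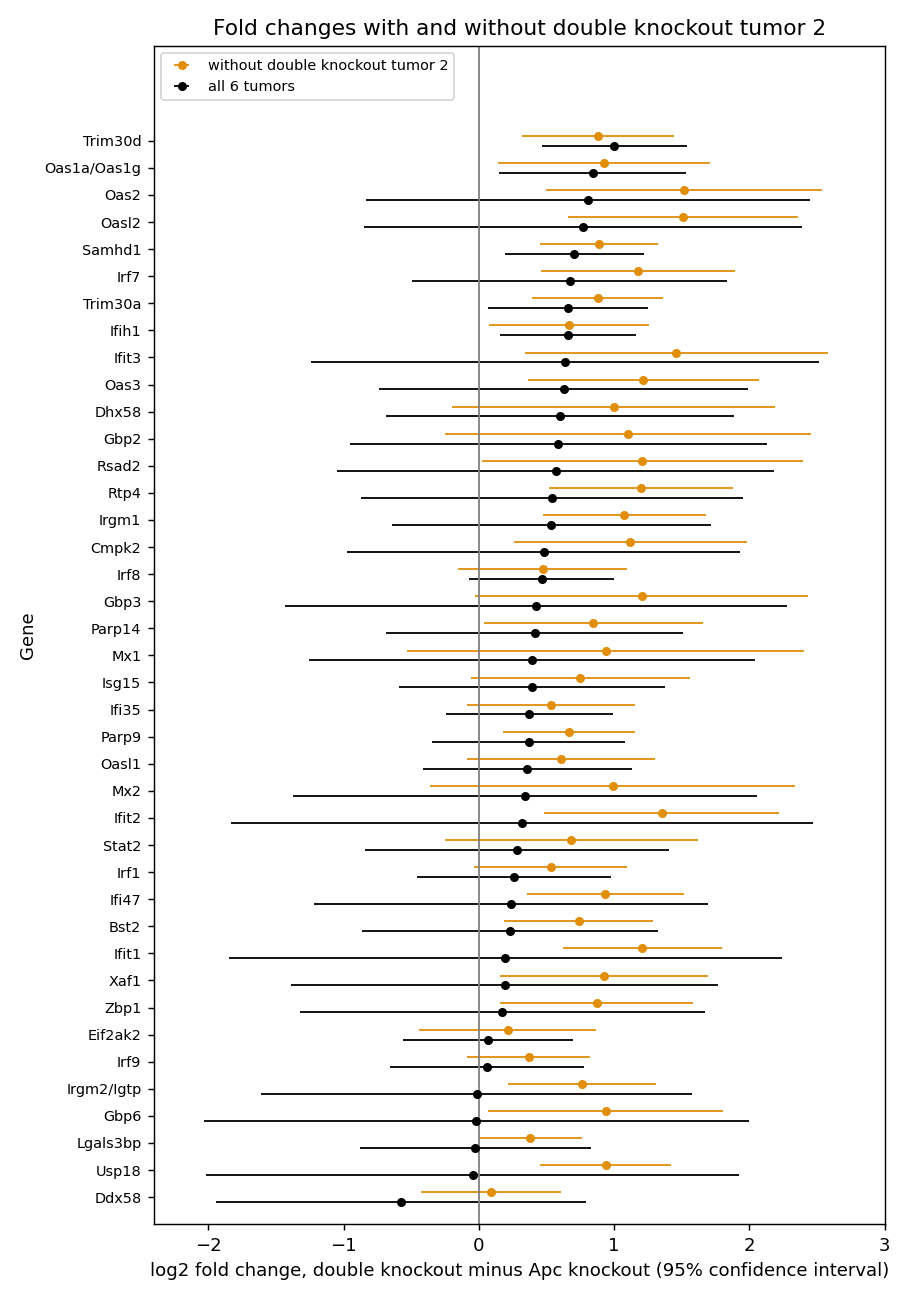
Log2 fold change, double knockout minus Apc knockout (horizontal axis), with its 95% confidence interval from limma for the 40 member probe sets (vertical axis, by fold change), without double knockout tumor 2 (orange) and with all 6 tumors (black). All orange points lie above 0, and the intervals with all 6 tumors lie above 0 only for Trim30d, the set of Oas1a and Oas1g, Samhd1, Trim30a and Ifih1.

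Marker lists of immune cells were set beside these results. The mean of 5 general leukocyte markers was 9.97, 9.40 and 9.39 in double knockout tumors 1 to 3, against 9.45, 9.38 and 9.52 in Apc knockout tumors 1 to 3. The mean of 13 macrophage and monocyte markers, among them a set that Itgam shares with the ribosomal gene Rpl35, spanned 9.47 to 10.09 in the double knockout tumors, against 9.60 to 9.94 in Apc knockout tumors, and it was lowest in double knockout tumor 3, the tumor with the highest signal for 26 of the 40 members. The mean of 10 T and NK cell markers was 7.70, 6.91 and 7.05 in double knockout tumors, against 7.05, 6.81 and 7.30 in Apc knockout tumors, so tumor 2 was the lowest of each genotype. All 8 dendritic cell markers were higher in mean in double knockout tumors (6.87 to 7.38 against 6.71 to 6.91 on average), where 52.3% of all sets tested were higher, and in 3 the groups did not overlap (5.25% of all sets). All 10 neutrophil markers were lower in mean, where 52.3% of all sets tested were higher. Their log2 fold changes ran from −0.02 for Csf3r to −2.64 for Ngp. The list means of the groups overlapped (7.41 to 8.73 against 8.67 to 9.65). Of 5 sets of B and plasma cell markers 3 passed the filter on signal. Their mean was 7.69, 7.94 and 6.53 in double knockout tumors, against 6.45, 6.50 and 6.71 in Apc knockout tumors. Among them Jchain, the joining chain of secreted antibodies, had 8.59, 8.45 and 5.26 against 5.21, 4.80 and 5.61. Only double knockout tumors 1 and 2 were above the filter value of 5.88 for Jchain. It passed the filter through these tumors, so its direction and its weight in the list mean are no separate result. The part of these cells in the signals of the members was not tested.

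None of the 11 tested interferon sets and none of the 6 receptor sets reached an unadjusted p under 0.05 in limma. Of the interferon sets, 8 had a higher mean in double knockout tumors, and of the receptor sets 2 (52.3% of all sets tested). The groups did not overlap for 2 sets that several interferon-alpha genes share, both higher in double knockout tumors (5.25% of all sets tested). That of Ifna4 had 6.12, 6.19 and 6.17 in double knockout tumors, against 6.08, 5.91 and 5.99 in Apc knockout tumors, and that of Ifna9 had 6.88, 6.89 and 6.98 against 6.76, 6.64 and 6.81. In both, the gap between groups was under 0.1 log2 units. A set of Ifna14 alone had 6.77, 7.17 and 6.90 against 6.63, 6.89 and 6.92, and that of Ifnl3, an interferon-lambda gene, and Ifnl2 had 7.53, 7.80 and 7.60 against 7.54, 7.31 and 7.69. The groups overlapped for both, and the sets of Ifnb1 and Ifnk lay below the filter. Ifng had 7.27, 6.73 and 7.38 in double knockout tumors, against 6.84, 6.80 and 7.31 in Apc knockout tumors. Double knockout tumors 1 and 3 and Apc knockout tumor 3 were the 3 highest for Ifng. The same tumors were highest for Irf1, Irgm1 and Gbp6, and also for Usp18 and Ddx58. For Gbp3 and Tap1, Apc knockout tumor 2 was above Apc knockout tumor 3. Which interferon lay behind the signals was not tested. The type I receptor genes had Ifnar1 signals of 10.60, 10.18 and 10.70 against 10.80, 10.73 and 10.82, and Ifnar2 signals of 10.08, 9.44 and 10.19 against 10.28, 10.11 and 10.34. Ifnar1 was thus lower in every double knockout tumor than in any Apc knockout tumor (log2 fold change −0.29, standard error 0.16), with −0.13 left when double knockout tumor 2 was left out. Of the subunits for interferon-gamma, Ifngr1 had 11.90, 12.62 and 11.39 against 11.75, 11.71 and 11.82, and Ifngr2 had 12.88, 12.81 and 12.94 against 12.95, 12.76 and 12.98. The log2 fold change of Ifngr1 was 0.21, and −0.11 without double knockout tumor 2. Of those for interferon-lambda, Ifnlr1 had 8.52, 8.83 and 8.71 against 8.88, 8.70 and 9.04, and Il10rb had 10.97, 11.19 and 10.86 against 11.08, 10.65 and 10.84. The groups overlapped for these 4 genes.
Of 9 genes for JAK kinases, Stat3 and feedback inhibitors, 7 were higher and 2 lower in mean (52.3% of all sets tested were higher). Of 15 upstream sensors and adaptors 12 were higher and 3 lower, with 0 at an unadjusted p under 0.05 in limma in either list. The median log2 fold changes were 0.03 and 0.15. Socs3, a feedback inhibitor of cytokine receptors, had 9.98, 9.46 and 10.33 in double knockout tumors, against 10.09, 10.74 and 10.06 in Apc knockout tumors. Among the phosphatases that restrain the pathway, Ptpn6 had 9.01, 8.86 and 9.07 against 9.12, 9.05 and 9.25, and Ptpn2 had 9.66, 9.68 and 9.86 against 9.54, 9.77 and 9.43. The kinase Jak2 had 10.56, 10.54 and 10.49 against 10.30, 10.62 and 10.46. The groups overlapped for all 4. Myd88, the adaptor of most Toll-like receptors, had 10.07, 10.41 and 10.25 against 9.68, 10.23 and 9.62, and Tlr3, the receptor for double-stranded RNA in endosomes, had 9.17, 9.20 and 8.86 against 8.77, 9.01 and 8.50. Tbk1, the kinase that activates Irf3, had 10.13, 9.87 and 10.04 against 10.04, 10.41 and 10.28. These were overlapping groups too. Double knockout tumor 2 stood low for Sting1, the adaptor of the DNA sensor cGAS, which had 11.54, 10.29 and 12.28 in double knockout tumors, against 11.72, 11.82 and 11.85 in Apc knockout tumors. It stood high for Mavs, the adaptor of Ifih1 and Ddx58, which had 9.88, 10.47 and 9.77 against 9.73, 9.60 and 9.84.

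Interferon-stimulated genes outside the list were counted in the same way, and double knockout tumor 2 was below both other double knockout tumors in 42 of their 53 tested sets (41.2% of all sets). Of the 53, 43 were higher and 10 lower in mean in double knockout tumors (52.3% of all sets tested were higher), and their log2 fold changes had a median of 0.30. An unadjusted p under 0.05 was reached by 7 (1.78% of all sets in that direction), and the groups did not overlap in 6 (5.25%), all of them higher. The set of Sp110, a nuclear body protein, which carries 5 further symbols, had 8.58, 8.54 and 8.40 in double knockout tumors, against 7.86, 7.86 and 8.03 in Apc knockout tumors, a log2 difference of 0.59 with a standard error of 0.11 and, in limma, an adjusted p of 0.821. Tor3a had 9.42, 9.58 and 9.41 against 8.90, 9.11 and 9.10, and Isg20, an RNA exonuclease, had 9.06, 9.35 and 9.44 against 8.91, 8.90 and 8.72. Ifi27 had 9.003, 9.48 and 9.13 against 8.62, 8.84 and 8.72. Their log2 fold changes were 0.43, 0.44 and 0.48, and double knockout tumor 2 was not the lowest double knockout tumor for Isg20, Ifi27 or Tor3a. Without double knockout tumor 2, 51 of the 53 were higher (50.5% of all sets), 26 at an unadjusted p under 0.05 (2.22%), and the median was 0.56.
Cxcl9 and Cxcl10, chemokines that draw activated T cells, had log2 fold changes of −0.03 and 0.56, and of 1.09 and 1.65 without double knockout tumor 2. Cxcl9 had 11.45, 8.42 and 12.10 in double knockout tumors, against 9.77, 10.96 and 11.33 in Apc knockout tumors. Cxcl10 had 9.90, 7.17 and 10.99 in double knockout tumors, against 8.05, 8.81 and 9.52 in Apc knockout tumors. Its order of tumors was that of Gbp6, with double knockout tumor 3 the highest, double knockout tumor 2 the lowest and Apc knockout tumor 3 the highest of its group.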

How the data were processed

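RNA of laser-dissected colon tumors was measured on Affymetrix Mouse Gene 1.0 ST arrays, 1 for each mouse. The authors summarized them by RMA (GeneSpring GX), and the values they deposited are log2 signals. The RMA version is not given in the sources used here. All value columns were mapped to samples by accession. Probe sets were named from the platform annotation (21789 sets with 1 symbol, 1621 with several, 12146 with none). Promoter windows were taken from RefSeq (GRCm38.p6) by symbol.

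Genotypes were compared in R 4.3.3 by limma 3.58.1, with lmFit and eBayes, two-sided and without covariates, with Benjamini-Hochberg adjustment over 19506 probe sets, namely those that carry a symbol and reach the 20th percentile of mean signal (5.88), which stands in for the 20% cut-off of the methods. The methods' t-test was applied to these values too. Exact permutation tests used all splits of the tumors of 1 gene. Intervals are 95% confidence intervals. Precision is limited by the number of arrays. The fit was checked on simulated data.

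Values in every tumor are given for the 10 members with the largest absolute log2 fold change, the 4 with the smallest p and 20 chosen for their role, and for pathway lists for the receptors and up to 4 genes of smallest p, with others of those lists (Ifng, Sting1, Cxcl9 and Cxcl10, and Tap1 and Cd274 in the closing section) chosen after their values were seen. Members and lists were chosen with earlier results of these data known. Alternatives were the t-test, no filter, a 40th percentile filter (7.15), quantile normalization, median centring, robust eBayes with a trend, the replicate block, each tumor left out, the mean of all sets of a gene, and single-symbol sets only.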

Additional observations from a re-analysis of the deposited data

How the results depend on the processing

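Over 15 alternatives, the number of members past the adjusted threshold stayed at 0, and the smallest adjusted p of a described member was 0.556. The methods' t-test gave 3 members at an unadjusted p under 0.05 and the fit with the replicate number as a block (replicate block) gave 4, against 5 in the main comparison. Same-numbered tumors did not deviate together (correlations −0.18, −0.07 and 0.09), 1 of 6 tumors correlated best with its own number, and the numbers were not taken as pairs. With a tumor left out, members at an unadjusted p under 0.05 in limma were 1 to 25 and members without overlap 5 to 30. Members higher in double knockout tumors were 24 to 40, and the median log2 fold change was 0.09 to 0.92. The highest value each time was that without double knockout tumor 2, where the shares of all sets tested were 2.22%, 9.49% and 50.5% for the 3 counts. In the main comparison they were 1.78%, 5.25% and 52.3%, and for the other alternatives they were not counted.
Of 26 members described with values, 16 kept their direction throughout. The lowest log2 fold change of each of the 16 with a tumor left out ranged from 0.06 to 0.83. It was 0.06 for Irf1 and Rsad2, 0.07 for Isg15, 0.08 for Gbp2, 0.11 for Ifit3 and 0.83 for Trim30d. The set of Irgm2 and Igtp was at 0.0037 after quantile normalization and 0.018 after median centring, and Lgals3bp at 0.0086 after median centring. With a tumor left out, log2 fold changes were −0.51 to 0.76 for Irgm2 and Igtp, −0.55 to 0.94 for Usp18, −0.33 to 1.21 for Ifit1, −0.23 to 0.87 for Zbp1, −0.25 to 0.38 for Lgals3bp, −0.12 to 0.37 for Irf9, −0.11 to 0.68 for Stat2, −0.10 to 0.74 for Bst2, −0.075 to 0.96 for Mx1 and −0.91 to 0.088 for Ddx58. The cause was not tested. Precision is limited by having 3 tumors per group.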

Other observations

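Genes of antigen presentation that interferon-gamma induces were examined as a further list. The mean of 13 tested sets was 11.07, 10.26 and 11.02 in double knockout tumors 1 to 3, against 10.38, 10.76 and 10.72 in Apc knockout tumors 1 to 3. The set of Tapbp also carries the ribosomal gene Rps3a1. Of the 13, 11 were higher in mean in double knockout tumors (52.3% of all sets tested) and 2 lower. The median log2 fold change was 0.07, with 0 at an unadjusted p under 0.05 in limma. Double knockout tumor 2 was the lowest double knockout tumor in 12 (41.2% of all sets). Without this tumor all 13 were higher (50.5% of all sets), 3 at an unadjusted p under 0.05 in limma (2.22% of all sets in that direction), and the median was 0.44. Tap1, which carries peptides into the endoplasmic reticulum, had 11.33, 9.44 and 11.14 in double knockout tumors, against 10.06, 11.02 and 10.56 in Apc knockout tumors. Cd274 (PD-L1), the ligand that restrains T cells, had 9.85, 7.83 and 10.46 against 8.63, 9.33 and 9.72. Psmb10, an immunoproteasome subunit, had 10.82, 10.50 and 10.86 against 9.76, 10.71 and 9.89. Psmb9, another such subunit, had 10.33, 9.29 and 10.11 against 9.19, 9.80 and 9.60. Psme2, part of the activator of that proteasome, had 12.31, 11.93 and 12.41 against 11.77, 12.07 and 11.91, and Ciita, the activator of MHC class II genes, had 8.25, 7.39 and 7.63 against 6.97, 6.99 and 7.74. Tap1 and Cd274 were lowest in double knockout tumor 2, and Psmb10 was lowest in Apc knockout tumor 1. Tap1 and Cd274 were chosen after their values were seen.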
